A study of Caenorhabditis elegans with 12 samples.

Results

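The X dosage compensation genes of Caenorhabditis elegans were followed in adult XX animals that do and do not make sperm. The set holds sdc-1, sdc-2, sdc-3, dpy-21, dpy-26, dpy-27, dpy-28, dpy-30, mix-1 and xol-1, chosen by gene name, which is 10 of the 39665 named genes in each deposited table. The authors' test covered 9 of them after oligo-dT priming, in which cDNA synthesis starts at the poly(A) tail, and all 10 after priming with random hexamers, which prime along the whole RNA. Wild-type N2 animals were whole adult hermaphrodites, and animals homozygous for fog-2(q71), strain JK574, were whole adult XX females. All were grown at 20 °C on OP50 bacteria. FOG-2 is an F-box protein needed for sperm production in the hermaphrodite germline, so fog-2 females have oocytes and no sperm of their own. Mating of the females was not given in the sources used here. There were 4 groups (each genotype with each priming) of 3 libraries each, and both primings used the same RNA samples. Each group has 1 pooled FPKM value per gene (fragments scaled to the length of the gene model and to library size), so spread between libraries and read depth cannot be shown.

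In this worm, XX animals carry a dosage compensation complex that binds both X chromosomes and lowers their transcription, while XO males do not. The complex contains a condensin, a ring-forming complex of SMC proteins and their partners that shapes chromosomes. DPY-27 is the SMC subunit found only in this complex, and MIX-1, DPY-26 and DPY-28 also serve in the condensins of mitosis and meiosis. SDC-2 with SDC-3 and DPY-30 brings the condensin to the X, SDC-1 is a further zinc-finger member, and DPY-21 is a histone demethylase of the complex. XOL-1 is the switch upstream: it is high in XO embryos, where it keeps sdc-2 off, and low in XX embryos. Both genotypes studied here are XX.

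As a check of the labels, fog-2 RNA itself was at 64.2 FPKM in N2 and 14.4 FPKM in fog-2 with oligo-dT, and at 34.9 and 7.08 with hexamers, called lower at a q-value (a p-value adjusted over all tested genes) at or under 0.05 in both of the authors' deposited tables. Whole animals mix germline, embryos and soma, and in such samples fewer cells of a type and less RNA per cell cannot be told apart. Of the 16 listed sperm markers 1 carried the authors' mark for too many fragments with oligo-dT, which leaves no value; the others summed to 24.9 FPKM in N2 and 7.40 FPKM in fog-2 with oligo-dT, and all 16 to 16.8 and 8.99 with hexamers. The authors' deposited tables called 3 of 10 tested lower with oligo-dT and 0 of 1 with hexamers. Among all tested genes, 1.43% were called in either direction with oligo-dT and 0.822% with hexamers. The 10 oocyte markers, 2 of them with this mark with oligo-dT, summed to 4605 and 4298 FPKM, and to 5449 and 5615, with 0 of 8 and 0 of 10 tested called. The 12 early embryo markers, of which 3 carried the mark with oligo-dT, summed to 67.2 and 82.2 FPKM, and to 65.1 and 77.3, with 0 of 9 and 0 of 6 called. Male soma markers summed to 2.41 and 1.71 FPKM, and to 0.887 and 0.793, and 3 of 7 were at 0 in both genotypes with hexamers. Of the 5 germline markers, 2 carried the mark with oligo-dT, 3 and 5 were tested and 0 called, and those with values summed to 472 and 462 FPKM, and to 1264 and 1346. The part of tissue make-up in the members' values was not tested.

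No X dosage compensation gene passed the authors' test between genotypes with either priming. By the same q-value threshold in the authors' deposited tables, 0 of 9 members were called with oligo-dT, where 1.43% of all 16396 tested genes were called. With hexamers 0 of 10 were called, against 0.822% of 9855 tested genes. By the authors' deposited p under 0.05, unadjusted, 0 of 9 members passed with oligo-dT, beside 8.45% of all tested genes, and 1 of 10 did with hexamers, beside 8.97%. That member was dpy-30. The members' median log2 fold, positive where fog-2 was higher than N2, was 0.05 for oligo-dT and 0.08 for hexamers, and that of all tested genes was -0.02 and 0.10. With oligo-dT 6 members lay above 0 and 3 below, and with hexamers 9 lay above and 1 below. Most tested genes also lay above 0 with hexamers, since their median was 0.10. Centred on that median, the hexamer folds of sdc-1, sdc-2, dpy-26, dpy-27, dpy-28 and mix-1 lay below 0. Set against those 2 medians of all genes, the members' medians were 0.07 and -0.02.

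A standard error was implied by each fold together with the authors' p-value, read as a two-sided normal test. Leaving aside xol-1 and dpy-28, it was 0.14 to 0.17 with oligo-dT and 0.16 to 0.21 with hexamers. The 95% intervals of those 8 members with oligo-dT lay between 0.650-fold and 1.35-fold. With hexamers the intervals of 7 of them lay between 0.700-fold and 1.44-fold, and the interval of dpy-30 reached 1.94-fold. The deposited test score implies wider errors for all members except dpy-30 with hexamers, for example 0.29 in place of 0.17 for sdc-2 with oligo-dT, so the bounds depend on that choice.

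**Figure D1:**
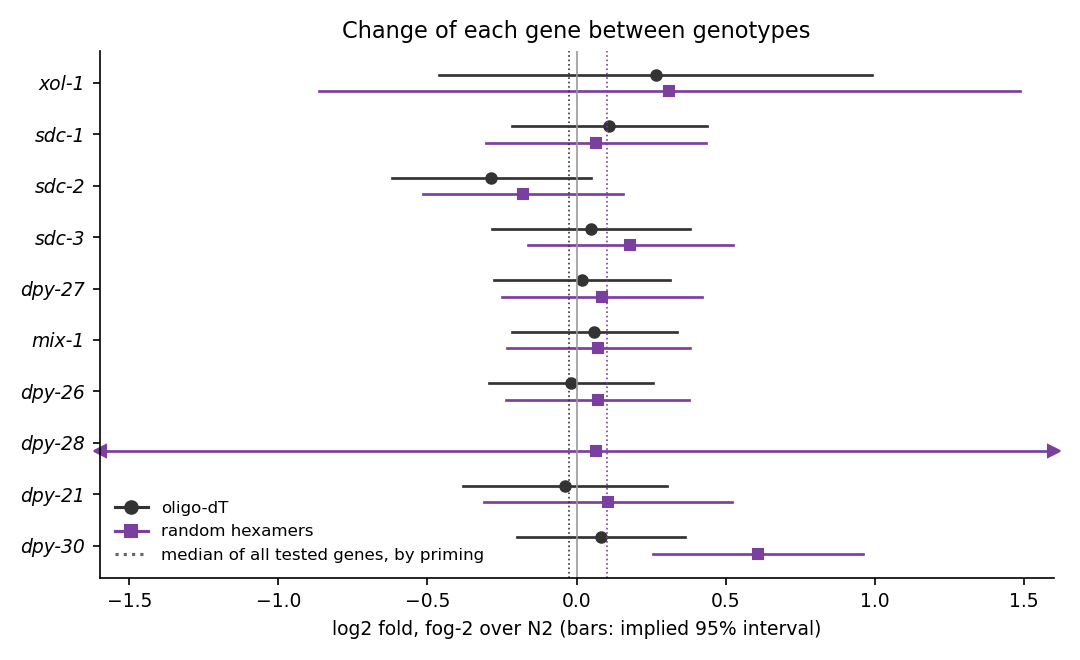
Log2 fold, fog-2 over N2, of each X dosage compensation gene with oligo-dT (circles) and random hexamers (squares). Bars are 95% intervals implied by the authors' p-values, arrowheads mark an interval that runs past the axis, and dotted lines mark the median of all tested genes. With hexamers dpy-30 lies at 0.61, and its interval of 0.26 to 0.96 does not include 0; the interval of dpy-28 runs from -3.51 to 3.64.

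The upstream switch xol-1 was the least abundant member in every group. This gene lies on chromosome X, positions 8041278 to 8044360 in the deposited tables, whose genome build was not given in the sources used here. It was at 1.77 FPKM in N2 and 2.13 FPKM in fog-2 with oligo-dT. With hexamers it was at 1.99 and 2.47 FPKM. Both pooled values were thus slightly higher in fog-2, and the log2 folds were 0.27 (implied SE 0.37) and 0.31 (implied SE 0.60). The authors' deposited tables give q = 0.936 and q = 0.999 for xol-1. Its 95% intervals, -0.46 to 0.99 and -0.87 to 1.49, were the widest of the members apart from dpy-28.

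The SDC genes were low among the members, and sdc-2 was the one member with lower values in fog-2 with both primings. In N2, 47.2% of tested genes with a fold had a lower FPKM than sdc-2 with oligo-dT, and 22.4% did with hexamers. The gene sdc-2 (chromosome X, 11522673 to 11533058) encodes the large protein that only XX embryos normally make and that starts loading of the complex on the X. It was at 3.81 FPKM in N2 and 3.13 FPKM in fog-2 with oligo-dT, and at 7.40 and 6.54 with hexamers. The log2 folds were -0.29 (95% interval -0.62 to 0.05) and -0.18 (-0.51 to 0.16). Neither passed in the authors' deposited tables (p = 0.0934 and q = 0.713 with oligo-dT, p = 0.297 and q = 0.907 with hexamers). With oligo-dT, 58.9% of all tested genes with a fold had a smaller absolute log2 fold than sdc-2, and with hexamers 47.1% did. Over 4819 genes at 1 to 10 FPKM in N2 with oligo-dT, the median log2 fold was -0.13, with quartiles of -0.45 and 0.10. With hexamers it was 0.03 over 2704 such genes, with quartiles of -0.29 and 0.34. The part of level in the sdc-2 values was not tested. The zinc-finger gene sdc-1 (chromosome X, 16275700 to 16282227) was at 8.81 and 9.51 FPKM with oligo-dT and at 9.99 and 10.4 FPKM with hexamers, and sdc-3 (chromosome V, 15039340 to 15047774) was at 4.04 and 4.18 FPKM and at 7.67 and 8.69 FPKM. Their log2 folds were 0.11 and 0.06 for sdc-1 and 0.05 and 0.18 for sdc-3, all with intervals that include 0.

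The condensin subunit genes among the members had log2 folds between -0.02 and 0.09, all with intervals that include 0. DPY-27, the SMC protein special to dosage compensation, was encoded by RNA (dpy-27, chromosome III, 3813891 to 3819659) at 14.5 FPKM in N2 and 14.7 FPKM in fog-2 with oligo-dT, and at 14.7 and 15.7 with hexamers. Its partner gene mix-1 (chromosome II, 10824325 to 10841161) was at 57.9 and 60.4 FPKM with oligo-dT and at 51.1 and 53.7 with hexamers. The mix-1 locus in the tables is shared by 3 gene models, so some of its reads could be assigned to the others. The log2 folds were 0.02 and 0.09 for dpy-27 and 0.06 and 0.07 for mix-1.

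The non-SMC subunit gene dpy-26 (chromosome IV, 12446179 to 12451267) was at 43.0 and 42.4 FPKM with oligo-dT and at 53.0 and 55.7 with hexamers, with log2 folds of -0.02 and 0.07. The other non-SMC subunit gene among the members, dpy-28, gave a value with hexamers alone, at 56.4 FPKM in N2 and 59.1 FPKM in fog-2. With oligo-dT the authors' deposited table marks its locus as holding too many fragments and lists placeholder zeros, which are no measurement. That locus (chromosome III, 10735699 to 12052193) merges 271 gene models. With hexamers dpy-28 had a log2 fold of 0.07 and an implied SE of 1.83, against at most 0.60 for any other member, so its value says little about change.

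The chromatin enzyme gene dpy-21 (chromosome V, 17936831 to 17949002) was at 28.3 FPKM in N2 and 27.6 FPKM in fog-2 with oligo-dT, and at 33.7 and 36.3 with hexamers. The log2 folds were -0.04 (95% interval -0.38 to 0.30) and 0.11 (-0.31 to 0.52). The values of fog-2 and N2 were thus in opposite order with the 2 primings, within the implied error, as they were for dpy-26. The medians of all tested genes also lay on either side of 0, at -0.02 and 0.10. Centred on these medians, the dpy-21 folds were -0.013 and 0.0025.

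The small subunit gene dpy-30 had the lowest q-value of the members, with hexamers, and was not called. DPY-30 is shared between the dosage compensation complex and the complexes that methylate lysine 4 of histone H3. The gene (chromosome V, 12191519 to 12191969) was the most abundant member in every group. With oligo-dT it was at 463 FPKM in N2 and 489.5 in fog-2, a log2 fold of 0.08 (95% interval -0.20 to 0.36) with q = 0.968 in the authors' deposited table. With hexamers it was at 220.1 FPKM in N2 and 335 in fog-2, a log2 fold of 0.61 (0.26 to 0.96). There p = 0.0007 and q = 0.0711 in the authors' deposited table, which misses the threshold. Of all tested genes with a fold, 88.7% had a smaller absolute log2 fold than 0.61. Once centred on all tested genes, the hexamer fold was 0.50 on the log2 scale. Short transcripts stood higher in fog-2 with hexamers in general: the median log2 fold was 0.20 over 2782 genes of up to 1000 bases, with quartiles of -0.05 and 0.42, against 0.04 over 619 genes of 3000 to 4000 bases. With oligo-dT the median was -0.00092 over 5457 genes of that length, with quartiles of -0.55 and 0.22. More genes were tested with oligo-dT, so these medians cover different sets of genes. The longest dpy-30 transcript in the WBcel235 annotation has 580 bases, and dpy-30 lay above the upper quartile of its length class; the part of length in its value was not tested.

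**Figure D2:**
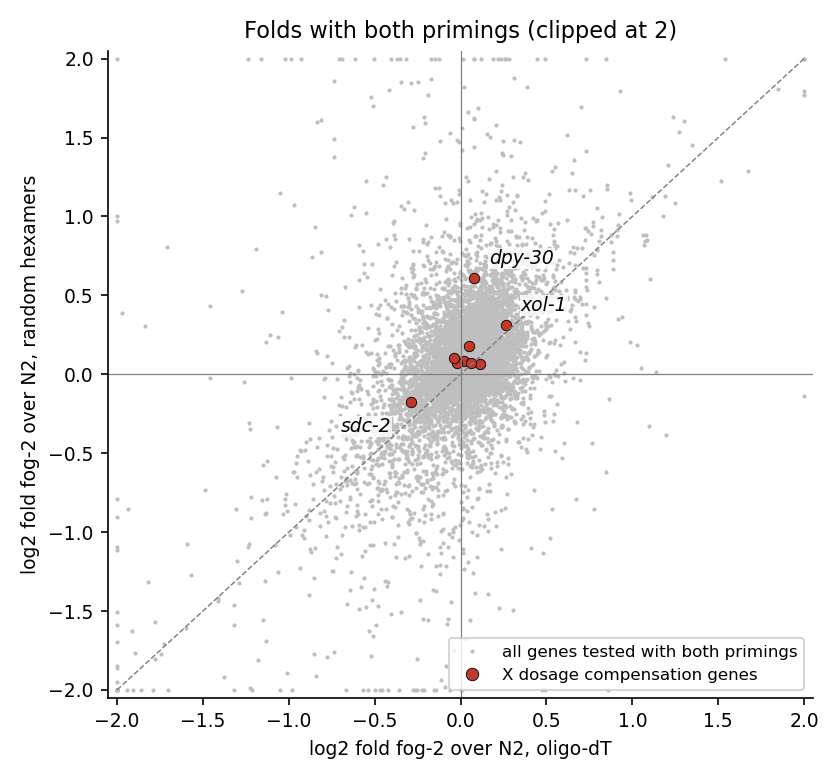
Log2 fold, fog-2 over N2, with oligo-dT (x axis) and random hexamers (y axis) for 8593 genes tested with both primings (grey) and the 9 X dosage compensation genes among them (red); values past 2 are drawn at 2 and the dashed line marks equal folds. The members cluster near 0, with dpy-30 at 0.08 and 0.61, sdc-2 at -0.29 and -0.18, and xol-1 at 0.27 and 0.31.

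The series set both primings side by side to look for an effect of fog-2 on poly(A) tails, so here the fold with oligo-dT was set against the fold with hexamers. The difference was centred on its median over 8593 genes, -0.06, and tested with the implied errors combined. None of the 9 members passed an adjusted p at or under 0.05 by this normal test, and 0 of the 8593 genes did (0%). At an unadjusted p under 0.05 there was 1 member, beside 1.61% of all genes. This was dpy-30, whose centred difference was -0.47 (95% interval -0.92 to -0.02). The two-sided normal test, built here on errors implied by the authors' deposited tables, gave it p = 0.0406 and adjusted p = 1. The other 8 members lay between -0.09 and 0.10. Both folds come from the same RNA samples and were taken as independent, so these p-values are approximate. With correct errors, a share of about 0.05 of unchanged genes would have p under 0.05, but only 1.61% of all genes did. The combined errors were thus too large for genes in general, which makes the p-values too high and the intervals too wide. The reason was not tested. The authors' p-values go no lower than 5e-05, so the implied errors of the strongest folds are upper bounds. The count of 0 genes passing therefore cannot show that no gene differed between primings. With errors from the test score in their place, 29 genes passed and no member did.

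Levels, which FPKM gives per length of gene model, spread over a wide range. In N2 with oligo-dT the most abundant member stood 261-fold above the least abundant, and in fog-2 229.7-fold. With hexamers these spans were 111-fold and 136-fold. Among the 9 members with both values, the order with oligo-dT was dpy-30, mix-1, dpy-26, dpy-21, dpy-27, sdc-1, sdc-3, sdc-2 and xol-1, in both genotypes. With hexamers the order was dpy-30, dpy-28, dpy-26, mix-1, dpy-21, dpy-27, sdc-1, sdc-3, sdc-2 and xol-1, again in both genotypes. Neighbours such as sdc-3 and sdc-2 in N2, at 4.04 and 3.81 FPKM, or dpy-26 and mix-1 with hexamers lay close together, and with pooled values no spread over libraries can separate them.

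**Figure D3:**
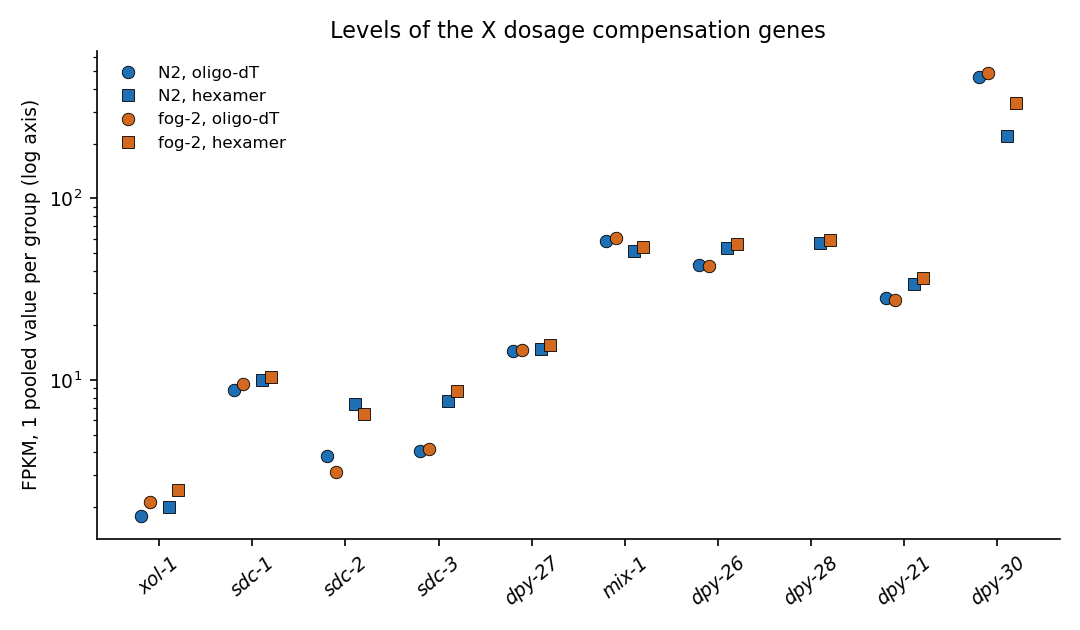
FPKM of each X dosage compensation gene on a log axis, 1 pooled value per group, with circles for oligo-dT, squares for hexamers, blue for N2 and orange for fog-2; dpy-28 has no oligo-dT value. The shared condensin genes mix-1, dpy-26 and dpy-28 lie between 42.4 and 60.4 FPKM, dpy-27 between 14.5 and 15.7 FPKM, and the SDC genes below 11 FPKM.

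The subunit special to dosage compensation was less abundant than the condensin genes it shares the complex with. SMC-4 takes the place of DPY-27 beside MIX-1 in the other condensins, and smc-4 was at 54.4 and 54.9 FPKM with oligo-dT and at 73.6 and 69.2 with hexamers. The ratio of dpy-27 to smc-4 FPKM was 0.266 in N2 and 0.267 in fog-2 with oligo-dT, and 0.200 and 0.226 with hexamers. The gene smc-4 was singled out after its values were seen. The mix-1 level was 0.841 times the sum of dpy-27 and smc-4 in N2 and 0.867 times in fog-2 with oligo-dT, and 0.578 and 0.633 times with hexamers. These ratios thus differed more between primings than between genotypes.

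Oligo-dT and hexamer tables were scaled separately, so levels across them are set side by side only as a description. The oligo-dT FPKM was lower than the hexamer FPKM for 7 of the 9 members in both genotypes, and higher for dpy-30 and mix-1. The longest messages stood lowest: sdc-2, with 9247 bases in its longest annotated transcript, had an oligo-dT to hexamer ratio of 0.515 in N2 and 0.478 in fog-2. For sdc-3, with 6774 bases, the ratios were 0.527 and 0.480. Over all 150 genes above 6000 bases the median ratio was 0.429 in N2. The short dpy-30 had a ratio of 2.1 in N2, close to the median of 2.08 for 2406 genes of up to 1000 bases, and of 1.46 in fog-2, where that median was 1.99. With 1980 bases, xol-1 had ratios of 0.890 and 0.863, below the N2 median of 1.59 for 3495 genes of 1000 to 2000 bases. Spearman's rho between length and ratio in N2 was -0.783 over the 9 members and -0.68 over 8312 genes, given as a description over genes of the same libraries.

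**Figure D4:**
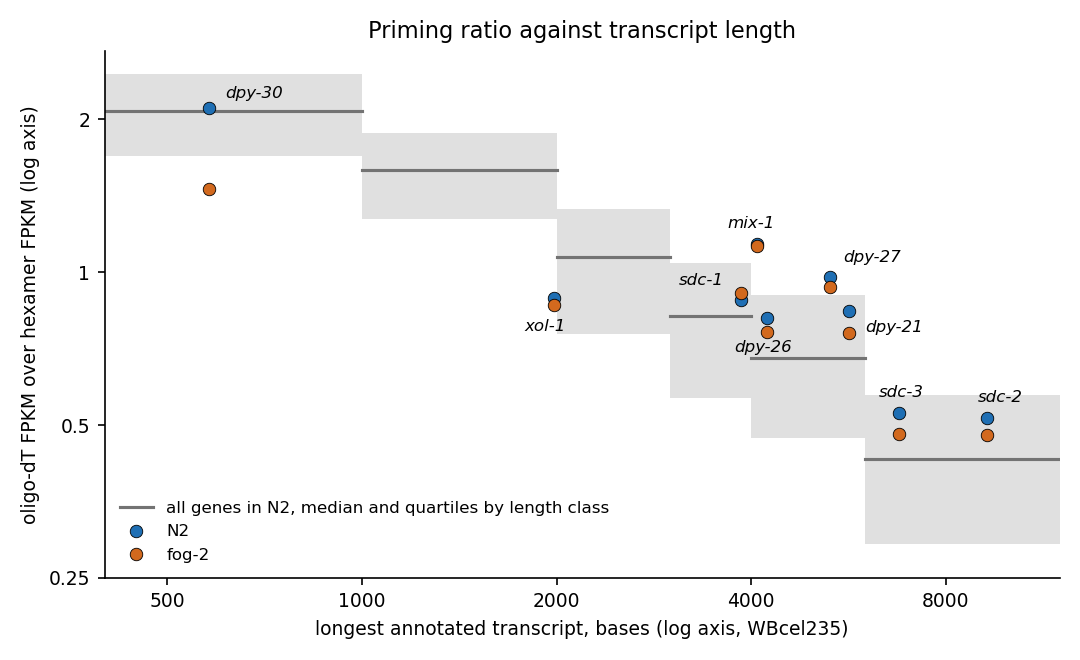
Ratio of oligo-dT to hexamer FPKM against the longest annotated transcript, both on log axes, for 9 X dosage compensation genes in N2 (blue) and fog-2 (orange); grey bars and bands give the median and quartiles of all genes in N2 by length class. The sdc-2 and sdc-3 points lie near 0.5, and dpy-30 is at 2.1 in N2 and 1.46 in fog-2.

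Genes that work with or next to the complex were described from 6 related lists with 32 genes, of which 31 were in the tables. Of these, 26 were tested with oligo-dT and 30 with hexamers, and 0 were called with either priming in the authors' deposited tables. Unadjusted, p was under 0.05 for 1 gene with oligo-dT and 0 with hexamers. Among all tested genes 1.43% and 0.822% were called, and 8.45% and 8.97% had an unadjusted p under 0.05 in the authors' test. Other condensin subunits had medians of 0.02 (4 tested) and -0.03 (5 tested). Among them capg-1, the further non-SMC subunit of the dosage compensation condensin, was at 52.0 and 53.0 FPKM with oligo-dT and at 89.4 and 82.1 with hexamers. Its log2 folds were 0.03 and -0.12, with intervals that include 0. For capg-2, of condensin II, the values were 69.1 and 71.0 FPKM, and 74.2 and 78.3 FPKM. Other SMC proteins had medians of 0.04 (2 tested) and -0.08 (4 tested), with smc-6 at log2 folds of 0.06 and 0.04. The cohesin gene him-1 was tested with hexamers alone, at -0.24 with an implied SE of 1.96.

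The signal elements that count X chromosomes against autosomes and act on xol-1 had medians of 0.08 and 0.03 over 5 genes. The hexamer median was the value of sea-2, which shares a locus of 526 gene models with sea-1. Implied SEs of sea-1 and sea-2 were 1.41 to 3.64 over both primings. The X-linked repressor gene sex-1, a nuclear receptor, was at 22.4 and 25.2 FPKM with oligo-dT and at 24.7 and 24.4 with hexamers. The X-linked homeobox gene ceh-39 was at 34.3 and 32.6 FPKM, and at 21.8 and 24.0 FPKM. Partners of DPY-30 in histone H3 lysine 4 methylation had medians of 0.11 and 0.17 over 5 tested genes. The oligo-dT median was the value of ash-2, in a locus of 95 gene models, with an implied SE of 0.79. Of these partners wdr-5.1 had log2 folds of 0.11 and 0.22, and rbbp-5 of 0.18 and 0.17. Enzymes and anchors of X chromatin had medians of 0.02 (4 tested) and 0.14 (5 tested). Among them, set-1 encodes a histone H4 lysine 20 methyltransferase. Its levels in N2 and fog-2 were 154 and 156 FPKM after oligo-dT priming, and 100.1 and 110.4 FPKM after hexamer priming. With hexamers set-25, a histone H3 lysine 9 methyltransferase, had a log2 fold of 0.16 with an implied SE of 1.64.

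Sex-determination genes downstream of the SDC proteins had medians of 0.03 and 0.10 over 6 tested genes, with fem-3 at log2 folds of -0.03 and 0.12 and fem-2 at 0.02 and 0.04. The gene that the SDC proteins repress in XX embryos, her-1, was the gene with p under 0.05, and was named after its values were seen. It was at 2.75 FPKM in N2 and 8.80 FPKM in fog-2 with oligo-dT (p = 0.0492 and q = 0.587 in the authors' deposited table). With hexamers it was not tested by the authors and was at 1.13 and 0.183 FPKM, in the opposite order.

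Because the complex acts on the X, folds of all tested genes were also described by chromosome. With oligo-dT the median log2 fold was -0.11 over 2652 X-linked genes and -0.01 over 13240 autosomal genes, a difference of -0.10. This difference was -0.064 with 1 FPKM added to each value and -0.072 over genes with at least 1 FPKM in both groups. With hexamers it was 0.04 over 1294 X-linked genes and 0.11 over 8411 autosomal genes, a difference of -0.07. With oligo-dT chromosome V had the same median as the X, -0.11 over 3839 genes, and the other autosomes lay between -0.01 and 0.03. Folds with oligo-dT also moved with level: their median was -0.39 over 4576 genes at up to 1 FPKM in N2 and 0.06 over 4651 genes at 10 to 100 FPKM. The median N2 level with oligo-dT was 3.14 FPKM on the X, 1.98 on chromosome V and 5.34 on all autosomes. With hexamers it was 11.9 FPKM on the X and 31.0 on all autosomes. The median hexamer fold was 0.03 over genes at 1 to 10 FPKM in N2 and 0.11 over those at 10 to 100 FPKM. The part of level in the chromosome medians was not tested with either priming. The share of genes called in the authors' deposited table was 1.40% on the X and 1.44% on autosomes with oligo-dT, and 0.596% and 0.858% with hexamers. Of the 3 X-linked members, sdc-2 lay below the X median with both primings, and sdc-1 and xol-1 lay above it.

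**Figure D5:**
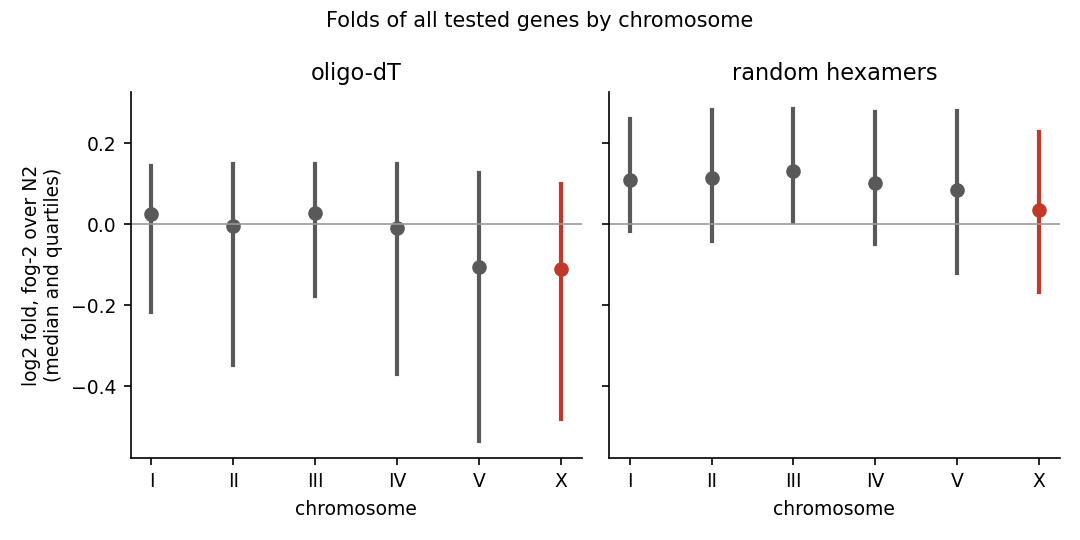
Log2 fold, fog-2 over N2, of all tested genes by chromosome, with points for medians and bars for quartiles; the X is in red. With oligo-dT the X and chromosome V medians are both -0.11, and with hexamers the X median of 0.04 is below those of the autosomes, 0.08 to 0.13.

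For sdc-2, dpy-27 and xol-1 the genes nearest in level were looked up. Likeness was the Euclidean distance over 4 log2 FPKM values, among 4214 other genes with a public name. Nearest to sdc-2 were ncr-1, at a distance of 0.22 and in a locus of 2 gene models, and the kinesin gene klp-4, at 0.30, both X-linked. Nearest to dpy-27 were gsto-3, named for an omega-class glutathione transferase, at 0.12, and arrd-25 at 0.14. The gene gsto-3 lies on chromosome III in a locus of 76 gene models, and arrd-25 is X-linked. For xol-1 they were mth-2 at 0.31, in a locus of 526 gene models, and the P-glycoprotein gene pgp-1 at 0.37, in a locus of 2. These lie on chromosomes II and IV, whereas xol-1 is X-linked.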

How the data were processed

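Per the labels' protocols, Trizol-extracted RNA of whole adults went into TotalScript (Illumina) libraries. Libraries were grouped by title; 2 samples carry a strain name unlike their genotype, and the description of 1 hexamer sample names oligo-dT. TopHat, Cuffdiff and Cufflinks 2.1.1 are named in the submitters' processing notes; a build or annotation was not given in the sources used here. For each priming the authors deposited 1 Cuffdiff table of genes, which holds, per the file headers, FPKM for both genotypes, the test score and the p-value and q-value. Starts in the tables are counted from 0, since in 6944 of 15738 genes matched to WBcel235 the start was offset by 1 more than the end, and 1 was added; only 40 then had the same start and end, so the reference served for names and transcript lengths alone (96.7% of genes tested with both primings had a length).

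Here, log2 folds (fog-2 over N2, no pseudocount) were recomputed from the FPKM columns over all genes that the authors tested (status OK), and calls are the authors' own. Standard errors, 95% intervals and the priming test (two-sided normal test, Benjamini-Hochberg over 8593 genes) follow from the authors' p-values, with Python 3.11.15, pandas 2.3.3 and scipy 1.17.1. The priming test was run on simulated data with independent normal errors of the implied size. Such data cannot check those assumptions for primings that share RNA samples. Depth is unknown and counting intervals were not computed; p-values rest on the 3 samples per genotype, which the series calls biological replicates. The members and lists were chosen with earlier results of these data known. Named genes were all members, of each related list the called genes and the 2 with the largest mean FPKM, and the 2 nearest genes of sdc-2, xol-1 and dpy-27. The genes sea-1, sea-2 and ash-2 were named for their shared loci. rbbp-5 was matched by its RefSeq locus tag, and cfp-1 was not matched. The tables held 0 further columns of per-sample values. The 1 nameless row of each was dropped. Alternatives were other pseudocounts, FPKM minimums, centring, thresholds, shared loci and error sources.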

Additional observations from a re-analysis of the deposited data

How the results depend on the processing

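Of 130 recomputed values, 115 were labelled as the same, 7 as moved and 8 as reversed in sign. The members' median with hexamers turned from 0.08 to -0.02 with centring and was labelled as the same. Among the moved values were the log2 ratios of oligo-dT to hexamer FPKM of sdc-2 and sdc-3 with 1 FPKM added. For sdc-2 in N2 this ratio went from -0.96 to -0.80. The count of members called with hexamers moved from 0 to 1, dpy-30, with a q-value at or under 0.1 and with an unadjusted p under 0.05. Adjusted over genes with at least 1 FPKM in 1 group it was again 0, with dpy-30 at an adjusted p of 0.0711 from the authors' p-values. With folds centred on the median of all tested genes, signs turned for sdc-1 (-0.038), dpy-26 (-0.032), dpy-27 (-0.017), dpy-28 (-0.036) and mix-1 (-0.030) with hexamers and for dpy-26 (0.0049) with oligo-dT, all within the implied error. Without centring, the priming difference turned to -0.014 for mix-1 and -0.046 for xol-1. With standard errors from the test score, 29 genes passed the priming test and no member did. The X minus autosome difference with oligo-dT shrank to -0.064 with 1 FPKM added; the cause was not tested. Without dpy-30, an alternative chosen after seeing the data, the members' medians were 0.03 and 0.07. Leaving out a library was not run, since the tables hold 1 pooled value per genotype. No paired analysis was possible because there are no values per library to pair by the letters in the titles.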

Other observations

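Among X-linked genes, 5 were called with both primings in the authors' deposited tables, in loci of their own, and they were named after their values were seen. With oligo-dT 1.40% of 2858 tested X-linked genes were called, and with hexamers 0.596% of 1342. The matching count of autosomal genes called with both primings is not given here. F53A9.8 went from 554 to 161 FPKM with oligo-dT and from 222 to 63.6 with hexamers, and CELE_ZK1073.1 from 34.0 to 21.3 and from 46.6 to 23.8 FPKM. H29C22.1 went from 107 to 241 FPKM and from 46.9 to 94.2 FPKM, and Y62H9A.4 from 214 to 406 FPKM and from 99.3 to 201 FPKM. Y62H9A.3 went from 277 to 485 FPKM and from 117 to 210 FPKM.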
